A study of Homo sapiens with 12 samples.

Results

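The HOX genes are homeobox transcription factors that lie in 4 clusters, HOXA, HOXB, HOXC and HOXD, and their expression was compared across 4 groups of Caco-2 cultures. Members were the probe sets whose only annotated gene symbol was HOXA, HOXB, HOXC or HOXD followed by a paralog number from 1 to 13. This rule found 27 of the 18417 genes with a probe set of their own. They were 1 HOXA gene, 10 HOXB genes, 7 HOXC genes and 9 HOXD genes, and RefSeq lists 39 HOX genes. The other 10 genes of the HOXA cluster and 2 of the HOXC cluster had no such probe set and were not analysed here, and 1 probe set that named several HOX genes was left out. Each member had 1 probe set, so that no choice between probe sets was needed.

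Caco-2 is a human colon carcinoma line used as a model of the intestinal epithelium. The lines TLR4-WT, TLR4-D299G and TLR4-T399I carried an HA-tagged plasmid for the wild-type lipopolysaccharide receptor TLR4 or for a form with the named amino acid change. They were made by transfection with 1 µg of plasmid per well and kept as stable transfectants under 1 µg/ml blasticidin. The fourth group, untransfected Caco-2, had received neither plasmid nor selection, and no line with an empty vector was among the groups, so that TLR4 expression, transfection and selection cannot be told apart. All cultures grew for 8 days, and 3 RNA samples per group were each put on 1 array, 12 arrays in all. The labels speak of selected clones, and they leave unstated if the triplicate RNA came from separate cultures. The p-values hence cover only the spread among the 3 samples of a group, possibly a technical one, and the amino acid change cannot be told apart from other differences between the selected lines.

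HOX proteins bind DNA through the homeodomain and set the identity of cells along the head-to-tail axis of the embryo. Within a cluster the genes with low paralog numbers lie at the 3′ end and are used in anterior tissues, and those with high numbers lie at the 5′ end and are used in posterior tissues such as the hindgut. Many stay active in the adult gut, where caudal factors such as CDX2, retinoic acid, Polycomb complexes and MLL complexes are known regulators of the clusters.

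Values are log2 expression, on which a difference of 1 is a 2-fold change, and lower quartiles of the 12 arrays ran from 5.2 to 5.29, medians from 6.88 to 6.97 and upper quartiles from 8.71 to 8.85. A group mean under 5.2 is called near background here. TLR4 itself lay near background in untransfected cells (4.59 to 5.12) and between 8.29 and 8.89 on the arrays of the TLR4 lines. All 9 epithelial markers, among them CDX2, VIL1, CDH1 and EPCAM, lay above background in every group. Their summed log2 level was 98.23 to 98.67 in TLR4-D299G and 99.67 to 100.82 in the other groups, and without CDX2 it was 89.09 to 89.53 in TLR4-D299G and 89.75 to 91.06 in the others. In TLR4-D299G 5 of the 9 were lower and 2, KRT8 (0.58) and KRT18 (0.65), were higher than in untransfected cells, and both keratins were higher in every line. The 7 fibroblast markers summed to 47.27 to 47.5 in TLR4-D299G and 43.82 to 45.69 elsewhere, and without PDGFRA to 38.53 to 38.96 and 36.8 to 37.55. DCN was near background in all groups and LUM in untransfected cells and TLR4-WT. The receptor gene PDGFRA was higher in each TLR4 line than in untransfected cells, by 1.03 in TLR4-WT, 2.09 in TLR4-D299G and 1.36 in TLR4-T399I. Of the other fibroblast markers COL3A1 was higher in TLR4-WT (0.33) and TLR4-D299G (0.68), COL1A2 was higher in TLR4-D299G (0.28), PDGFRB was lower in TLR4-T399I (-0.53), and COL1A1, DCN and LUM were not called against untransfected cells. Of the leukocyte, endothelial and erythroid markers, 5 of 6, 4 of 4 and 1 of 3 were measured, with summed levels of 31.62 to 32.97, 22.53 to 23.76 and 4.81 to 5.64 over all arrays. PTPRC and KDR were near background in all groups, and HBB in untransfected cells and TLR4-T399I. Means of CD68, LYN and PECAM1 were higher in untransfected cells (9.91, 7.97 and 6.89) than in the lines (9.4 to 9.56, 7.35 to 7.59 and 6.21 to 6.73). That of ITGAM was lower (5.75, against 6.05 to 6.23). Arrays of 1 group correlated at 0.9902 to 0.9959 across probe sets and arrays of different groups at 0.9769 to 0.9925.

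Genes of the HOXB cluster rose in the TLR4 lines, most in TLR4-T399I, next in TLR4-WT and least in TLR4-D299G. Against untransfected cells 9 of 10 HOXB genes were higher in TLR4-T399I, 7 in TLR4-WT and 5 in TLR4-D299G, and 0 were lower in any line. The HOXC cluster had 0 of 7 genes higher in any line and 1 lower in TLR4-WT, 3 in TLR4-D299G and 2 in TLR4-T399I. The HOXD cluster had 0 of 9 lower in any line and 4 higher in TLR4-WT, 2 in TLR4-D299G and 3 in TLR4-T399I. Over all probe sets 16.1% were higher and 15.1% lower in TLR4-WT, 17.5% and 17.9% in TLR4-D299G, and 14.6% and 14.8% in TLR4-T399I, so that the 1 of 7 HOXC genes lower in TLR4-WT and the 2 of 9 HOXD genes higher in TLR4-D299G were near the background. HOXA2, the only HOXA member, was lower in TLR4-D299G and TLR4-T399I. Single arrays decided some of these counts: the 5 HOXB genes in TLR4-D299G became 3 without TLR4-D299G replicate 1 or 3 or untransfected replicate 2, the 3 HOXC genes there became 1 without TLR4-D299G replicate 2 or untransfected replicate 1, and the 4 HOXD genes in TLR4-WT became 2 without TLR4-WT replicate 1 or 3 or untransfected replicate 2. Settings that kept these arrays also lost calls. Median centring and the compared arrays alone each lost HOXB1 and HOXB6 in TLR4-D299G and HOXD8 and HOXD9 in TLR4-WT. Each array measured RNA of a whole culture, so that fewer cells using a gene and less RNA per cell cannot be told apart.

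A gene was called at an adjusted p under 0.05 in limma's fit to all 33297 probe sets, and many probe sets were called in these comparisons. In TLR4-WT against untransfected cells 12 of 27 HOX genes were called, where 31.2% of all probe sets were; 11 were higher (background 16.1%) and 1 lower (background 15.1%). In TLR4-D299G the count was 11 (background 35.4%), with 7 higher (background 17.5%) and 4 lower (background 17.9%). It fell to 7 with the compared arrays alone, and to 7 without TLR4-D299G replicate 2, untransfected replicate 1 or untransfected replicate 2. In TLR4-T399I it was 15 (background 29.5%), with 12 higher (background 14.6%) and 3 lower (background 14.8%). The median difference of the 27 genes was 0.23, 0.17 and 0.18 in TLR4-WT, TLR4-D299G and TLR4-T399I, beside 0.05, 0.03 and 0.03 over all probe sets. For the HOXB genes the medians were 0.59, 0.24 and 0.88, for HOXC -0.03, -0.20 and 0.12, and for HOXD 0.29, 0.18 and 0.18. The arrays of the compared groups did not overlap at 17 HOX genes in TLR4-WT (background 43.6%), 18 in TLR4-D299G (background 47.3%) and 17 in TLR4-T399I (background 37.9%). These comparisons share the untransfected arrays.

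Between the lines the HOX genes were lower in TLR4-D299G than in TLR4-T399I wherever they were called. There 10 of 27 were called (background 13.4%), all lower in TLR4-D299G (background 7.64%) and 0 higher (background 5.81%), and 6 of them were HOXB genes. Without untransfected replicate 3, HOXB1 was called in addition, higher in TLR4-D299G. TLR4-D299G against TLR4-WT gave 7 calls (background 16.9%), of which 6 were lower in TLR4-D299G (background 9.02%) and 1, HOXB13, higher (background 7.85%). TLR4-T399I against TLR4-WT gave 8 calls (background 10.4%), of which 7 were higher in TLR4-T399I (background 5.9%) and 1, HOXC8, lower (background 4.48%). The arrays did not overlap at 14, 13 and 12 HOX genes in these comparisons (background 29.9%, 34.4% and 26.6%). Median differences of the 10 HOXB genes were -0.56, -0.25 and 0.35 in these comparisons, beside 0, -0.02 and -0.02 over all probe sets, in the same order. The mean of the 3 lines differed from untransfected cells at 17 HOX genes (background 39.2%), of which 14 were higher (background 20.3%) and 3 lower (background 18.9%), and at 11 the arrays of the lines did not overlap the untransfected ones (background 20.9%). All 10 HOXB genes were among the higher ones, and 9 to 10 were under the alternative settings. The call of HOXB1 (difference 0.17, adjusted p = 0.042) was lost in 11 of 17 alternative settings (highest adjusted p 0.166). Any difference among the 4 groups was called by the moderated F test at 19 of 27 HOX genes (background 41.9%). These 19 were 10 of 10 HOXB genes, 5 of 7 HOXC genes, 3 of 9 HOXD genes and HOXA2. The count was 16 after centring, 15 with the trended and robust prior, 17 with the replicate block and 20 without dim probe sets. Leaving out single arrays gave 14 to 18.

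**Figure D1:**
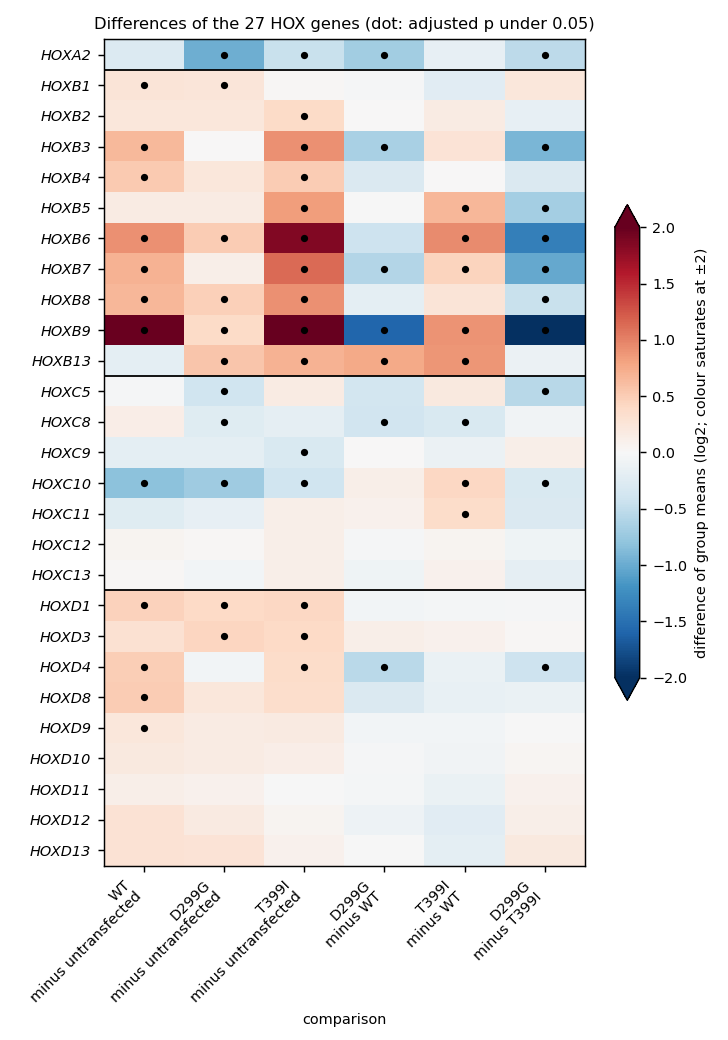
Log2 differences of group means for the 27 HOX genes (rows, by cluster) in the 6 pairwise comparisons (columns), with red for higher and blue for lower in the group named first and a dot where the adjusted p was under 0.05. The red block lies in the HOXB rows of the columns TLR4-WT and TLR4-T399I against untransfected, where HOXB9 reached 1.97 and 2.87, and 10 HOX genes, 6 of them HOXB, carry a dot in the last column.

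HOXB9, a posterior member of the cluster that patterns the trunk, showed the largest differences of the family. Its 3 arrays read 7.68, 7.69 and 7.66 in untransfected cells, 9.73, 9.65 and 9.55 in TLR4-WT, 8.09, 8.04 and 8.03 in TLR4-D299G, and 10.44, 10.67 and 10.53 in TLR4-T399I. No array of any group overlapped another group. HOXB9 was 7.31-fold higher in TLR4-T399I than in untransfected cells (log2 2.87, SE 0.07, adjusted p = 3.78e-09). It was 3.91-fold higher in TLR4-WT (log2 1.97, adjusted p = 3.55e-08) and 1.3-fold higher in TLR4-D299G (log2 0.38, adjusted p = 0.00216). The lines also differed among themselves, with TLR4-T399I 1.87-fold above TLR4-WT (adjusted p = 3.01e-05) and TLR4-D299G 3.01-fold below TLR4-WT (adjusted p = 1.65e-07). All of these calls held under each of the 18 alternative settings.

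HOXB7, which has been studied as a growth-promoting HOX gene of several carcinomas, followed the same order at smaller size. It read 8.62, 8.62 and 8.65 in untransfected cells, 9.30, 9.34 and 9.35 in TLR4-WT, 8.74, 8.72 and 8.78 in TLR4-D299G, and 9.73, 9.76 and 9.82 in TLR4-T399I. The groups did not overlap, but TLR4-D299G missed the threshold against untransfected cells (difference 0.12, SE 0.05, adjusted p = 0.115). HOXB7 was 2.20-fold higher in TLR4-T399I than in untransfected cells (adjusted p = 1.38e-07) and 1.62-fold higher in TLR4-WT (adjusted p = 4.86e-06). TLR4-T399I lay 1.36-fold above TLR4-WT (adjusted p = 0.000506), and TLR4-D299G lay 1.50-fold below TLR4-WT (adjusted p = 2.98e-05).

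HOXB6, a neighbour of HOXB7 active in mesoderm and in blood progenitors, had untransfected arrays of 5.46, 6.10 and 6.16 and TLR4-WT arrays of 6.91, 6.80 and 6.76. It read 6.43, 6.40 and 6.38 in TLR4-D299G and 7.59, 7.89 and 7.80 in TLR4-T399I. The first untransfected array was the lowest of all 12, and the groups did not overlap. HOXB6 was 3.61-fold higher in TLR4-T399I (log2 1.85, SE 0.16, adjusted p = 9.28e-06) and 1.89-fold higher in TLR4-WT (adjusted p = 0.00127) than in untransfected cells. The 1.41-fold rise in TLR4-D299G (adjusted p = 0.0301) missed the threshold in 5 of 18 alternative settings, among them the removal of any TLR4-D299G array (highest adjusted p 0.0824). TLR4-T399I lay 1.91-fold above TLR4-WT (adjusted p = 0.0034), whereas TLR4-D299G against TLR4-WT was not called (difference -0.42, adjusted p = 0.102).

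HOXB8, whose product holds back differentiation of myeloid progenitors, rose in all 3 lines. It read 6.27, 6.03 and 6.23 in untransfected cells, 6.90, 6.60 and 7.04 in TLR4-WT, 6.52, 6.66 and 6.76 in TLR4-D299G, and 7.20, 6.87 and 7.21 in TLR4-T399I. Every array of a TLR4 line lay above the untransfected arrays, while the lines overlapped with TLR4-WT. The folds over untransfected cells were 1.59 in TLR4-WT (adjusted p = 0.00281), 1.39 in TLR4-D299G (adjusted p = 0.0168) and 1.89 in TLR4-T399I (adjusted p = 0.000353). The call in TLR4-D299G was lost without TLR4-D299G replicate 3 or untransfected replicate 2 (highest adjusted p 0.0654), and that between TLR4-D299G and TLR4-T399I (adjusted p = 0.0449) was lost in 9 of 18 alternative settings.

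HOXB5, which acts in the neural crest that forms the enteric nervous system, stood apart in TLR4-T399I. It read 5.16, 5.34 and 5.56 in untransfected cells, 5.46, 5.43 and 5.68 in TLR4-WT, 5.57, 5.64 and 5.33 in TLR4-D299G, and 6.16, 6.14 and 6.28 in TLR4-T399I. The TLR4-T399I arrays were the 3 highest, and the other groups overlapped. The untransfected array of 5.16 lay below the lowest lower quartile of 5.2. HOXB5 was 1.79-fold higher in TLR4-T399I than in untransfected cells (adjusted p = 0.000296), 1.59-fold higher than in TLR4-WT (adjusted p = 0.00418) and 1.60-fold higher than in TLR4-D299G (adjusted p = 0.00244). The differences of TLR4-WT (0.17) and TLR4-D299G (0.16) from untransfected cells did not pass the test.

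HOXB3, an anterior gene of hindbrain and blood stem cells, rose in TLR4-WT and TLR4-T399I alone among the lines. It read 6.58, 6.52 and 6.71 in untransfected cells and 6.70, 6.64 and 6.49 in TLR4-D299G, ranges that overlapped. It read 7.16, 7.29 and 7.32 in TLR4-WT and 7.55, 7.55 and 7.47 in TLR4-T399I. The rise was 1.57-fold in TLR4-WT (adjusted p = 0.000115) and 1.89-fold in TLR4-T399I (adjusted p = 9.76e-06), against a difference of 0.01 (SE 0.08) in TLR4-D299G. The test of the difference itself put TLR4-D299G 1.57-fold below TLR4-WT (adjusted p = 0.000198) and 1.88-fold below TLR4-T399I (adjusted p = 2.24e-05).

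HOXB4, known for expanding blood stem cells, had untransfected arrays of 7.26, 7.25 and 7.38 and TLR4-WT arrays of 7.68, 8.01 and 7.75. It read 7.58, 7.43 and 7.55 in TLR4-D299G and 7.81, 7.72 and 7.90 in TLR4-T399I. All arrays of the lines lay above the untransfected arrays. HOXB4 rose 1.43-fold in TLR4-WT (adjusted p = 0.00168) and 1.43-fold in TLR4-T399I (adjusted p = 0.00164). The difference in TLR4-D299G (0.22, SE 0.09, adjusted p = 0.0823) did not pass the test, and neither did TLR4-D299G against the other lines.

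HOXB1 and HOXB2, the 3′ genes that pattern the hindbrain, differed least. HOXB2 was 1.31-fold higher in TLR4-T399I than in untransfected cells (adjusted p = 0.00591), with group means of 5.61 ± 0.02 (SD, n = 3) and 6.0 ± 0.16, and its differences of 0.22 in TLR4-WT and 0.23 in TLR4-D299G did not pass. HOXB1 was 1.19-fold higher in TLR4-WT (adjusted p = 0.0219) and 1.18-fold higher in TLR4-D299G (adjusted p = 0.0268), with a difference of 0.02 in TLR4-T399I. The HOXB1 calls were lost in 7 and 6 of 18 alternative settings, among them the centring of the arrays.

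HOXB13, the most posterior gene of the cluster, which is active in the distal colon and the prostate, went with the mutant lines instead. It read 6.79, 6.95 and 6.85 in untransfected cells, 6.63, 6.61 and 6.76 in TLR4-WT, 7.30, 7.44 and 7.54 in TLR4-D299G, and 7.53, 7.68 and 7.44 in TLR4-T399I. Both mutant lines lay above every array of the other groups and overlapped with each other. HOXB13 was 1.48-fold higher in TLR4-D299G (adjusted p = 0.000536) and 1.61-fold higher in TLR4-T399I (adjusted p = 0.000161) than in untransfected cells. It was also 1.69-fold and 1.84-fold higher than in TLR4-WT (adjusted p = 0.000136 and 0.000129). TLR4-WT against untransfected cells was not called (difference -0.20, adjusted p = 0.11).

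**Figure D2:**
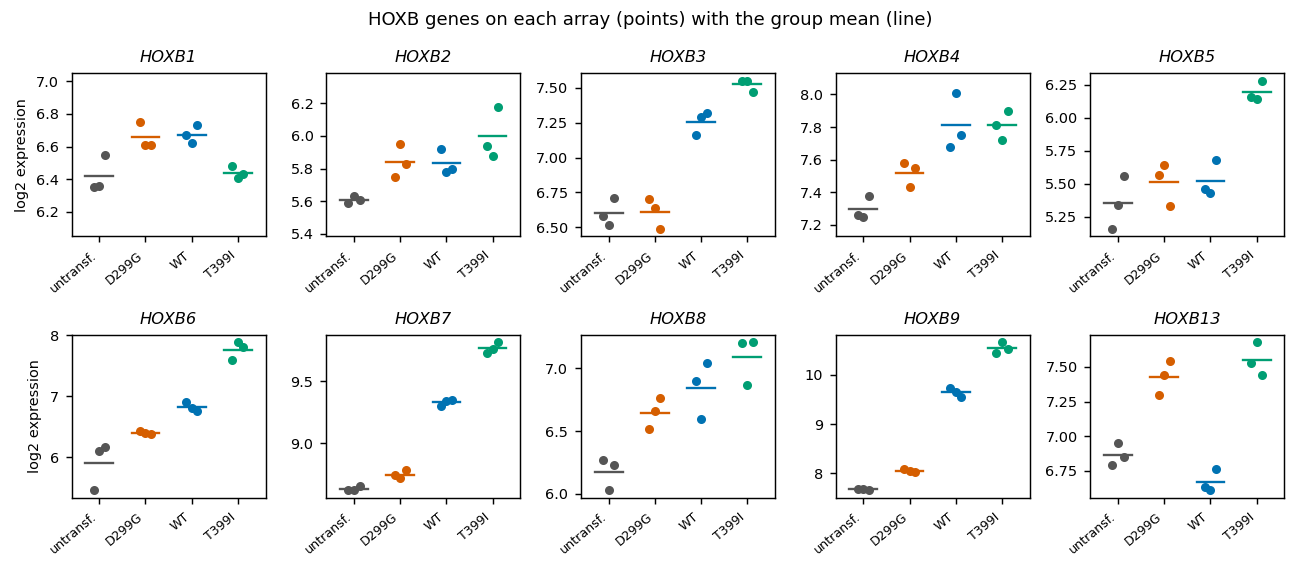
Log2 expression of the 10 HOXB genes on each of the 12 arrays (points) with the mean of each group of 3 (line); each panel has its own axis, which does not start at 0. HOXB9 separates all 4 groups, from 7.66 to 7.69 in untransfected cells to 10.44 to 10.67 in TLR4-T399I, whereas HOXB13 separates the mutant lines (7.30 to 7.68) from untransfected cells and TLR4-WT (6.61 to 6.95).

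The group means of HOXB3, HOXB5, HOXB6, HOXB7, HOXB8 and HOXB9, 6 of the 10 HOXB genes, fell in the order TLR4-T399I over TLR4-WT over TLR4-D299G over untransfected. Only 1 HOXC or HOXD gene, HOXC12, had that order, and 5.15% of all probe sets did. For HOXB3, HOXB5 and HOXB8 some neighbours in the order overlapped, and for HOXB6, HOXB7 and HOXB9 none did. Some ranks were near ties. HOXB5 had means of 5.52 in TLR4-WT and 5.51 in TLR4-D299G, and HOXB3 had 6.61 in TLR4-D299G and 6.6 in untransfected cells. HOXB5, HOXB6, HOXB7 and HOXB9 were called higher in TLR4-T399I than in each of the other groups (background 1.08%). HOXB6, HOXB8 and HOXB9, with HOXD1, were called lower in untransfected cells than in each line (background 7.4%). The count of HOX genes was 0 for TLR4-T399I lower than each other group (background 1.06%), for TLR4-WT higher (background 0.991%) or lower (background 1.91%) and for TLR4-D299G higher (background 1.97%). The order was noticed in these data and is a description of these 12 arrays.

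The microRNA genes of the clusters were looked at next, since their precursors are transcribed between the HOX genes and their products act on HOX messages. In RefSeq order MIR196A1 lies between HOXB9 and HOXB13, MIR196A2 lies in the HOXC cluster, and MIR10A lies between HOXB4 and HOXB5. The mature products that bear on the clusters are shown with the seed, bases 2 to 8, in capitals (RefSeq, GRCh38.p14). The 5p product of both miR-196a genes is the same, from chr17:48632532-48632553 on the minus strand for MIR196A1 and chr12:53991762-53991783 on the plus strand for MIR196A2. It is known to direct cleavage of HOXB8 messages. The miR-10a product comes from chr17:48579904-48579926 on the minus strand and has another seed.
hsa-miR-196a-5p: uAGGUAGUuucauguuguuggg
hsa-miR-10a-5p: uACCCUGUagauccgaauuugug

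The arrays carry separate probe sets for both miR-196a precursors, whose hairpins share the 5p arm and differ in the loop and the 3p arm. They are shown with that arm in capitals, MIR196A1 from chr17:48632490-48632559 (minus strand) and MIR196A2 from chr12:53991738-53991847 (plus strand).
MIR196A1 hairpin: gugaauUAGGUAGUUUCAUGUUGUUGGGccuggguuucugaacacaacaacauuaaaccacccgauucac
MIR196A2 hairpin: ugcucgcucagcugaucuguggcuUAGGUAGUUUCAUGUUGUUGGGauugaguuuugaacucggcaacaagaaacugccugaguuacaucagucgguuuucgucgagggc

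The MIR196A1 probe set moved in the same direction as its neighbour HOXB9, and that of MIR196A2 moved the other way. MIR196A1 read 6.51, 6.44 and 6.60 in untransfected cells, 8.15, 8.06 and 7.92 in TLR4-WT, 6.73, 6.97 and 6.59 in TLR4-D299G, and 8.17, 8.24 and 8.32 in TLR4-T399I. Untransfected cells and TLR4-D299G overlapped, and TLR4-WT and TLR4-T399I lay above both. The rise was 2.88-fold in TLR4-WT (adjusted p = 1.63e-06) and 3.31-fold in TLR4-T399I (adjusted p = 5.89e-07), and TLR4-D299G lay 2.43-fold below TLR4-WT (adjusted p = 8.4e-06). MIR196A2 read 6.39, 6.24 and 5.97 in untransfected cells, 5.79, 5.6 and 5.78 in TLR4-WT, 5.53, 5.49 and 5.15 in TLR4-D299G, and 5.73, 5.70 and 5.74 in TLR4-T399I. The untransfected arrays were the highest, and the folds by which MIR196A2 was lower were 1.39 in TLR4-WT (adjusted p = 0.0123), 1.75 in TLR4-D299G (adjusted p = 0.000432) and 1.39 in TLR4-T399I (adjusted p = 0.0125). These probe sets read transcripts of the precursor genes, and the level of the mature miR-196a-5p was not measured.

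MIR10A lay near background in all 4 groups, with means of 3.99 in untransfected cells, 4.46 in TLR4-WT, 3.58 in TLR4-D299G and 4.94 in TLR4-T399I, so that no fold is given. It was called higher than in untransfected cells in TLR4-WT (difference 0.48, adjusted p = 0.0471) and TLR4-T399I (difference 0.96, adjusted p = 0.00122). It was called lower in TLR4-D299G than in TLR4-WT (difference -0.88, adjusted p = 0.00316) and TLR4-T399I (difference -1.36, adjusted p = 0.000237). MIR10B, PRAC1, HOXB-AS3 and HOXA-AS2 were called in none of the pairwise comparisons. Of 27 non-coding RNAs and small genes listed for the clusters, 7 had a probe set of their own, and 3 of these passed the F test, a share near the background of 41.9%.

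On the far side of HOXB1 lies SKAP1, which encodes an adaptor protein of T cell receptor signalling. It read 4.81, 5.09 and 5.06 in untransfected cells, 6.97, 6.79 and 6.94 in TLR4-WT, 6.47, 6.40 and 6.48 in TLR4-D299G, and 6.88, 7.01 and 7.07 in TLR4-T399I. All arrays of the lines lay far above the untransfected arrays, which were near background. The estimated rise of SKAP1 was 3.77-fold in TLR4-WT, 2.76-fold in TLR4-D299G and 4-fold in TLR4-T399I (adjusted p = 1.35e-07, 8.52e-07 and 8.67e-08). The size of these folds is uncertain, since the untransfected mean was near background. Like several HOXB genes it was lower in TLR4-D299G than in TLR4-WT (1.37-fold, adjusted p = 0.00451) and TLR4-T399I (1.45-fold, adjusted p = 0.00195).

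Of the 10 genes nearest to the HOXB cluster with probe sets of their own, 5 on each side, 4 were higher and 1 lower in TLR4-WT, 5 and 0 in TLR4-D299G, and 6 and 1 in TLR4-T399I. The shares of all probe sets called higher were 16.1%, 17.5% and 14.6%, and those called lower 15.1%, 17.9% and 14.8%. Apart from SKAP1 these differences were smaller. ATP5MC1, which encodes a subunit of the mitochondrial ATP synthase, had differences of 0.46, 0.50 and 0.64 in the 3 lines. PRAC1, which lies between MIR196A1 and HOXB13, had differences of -0.03, -0.06 and -0.07, none called. TTLL6 and CALCOCO2, beyond HOXB13, were called in TLR4-T399I only and in TLR4-WT and TLR4-T399I, at 0.39 and at -0.25 and -0.23.

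**Figure D3:**
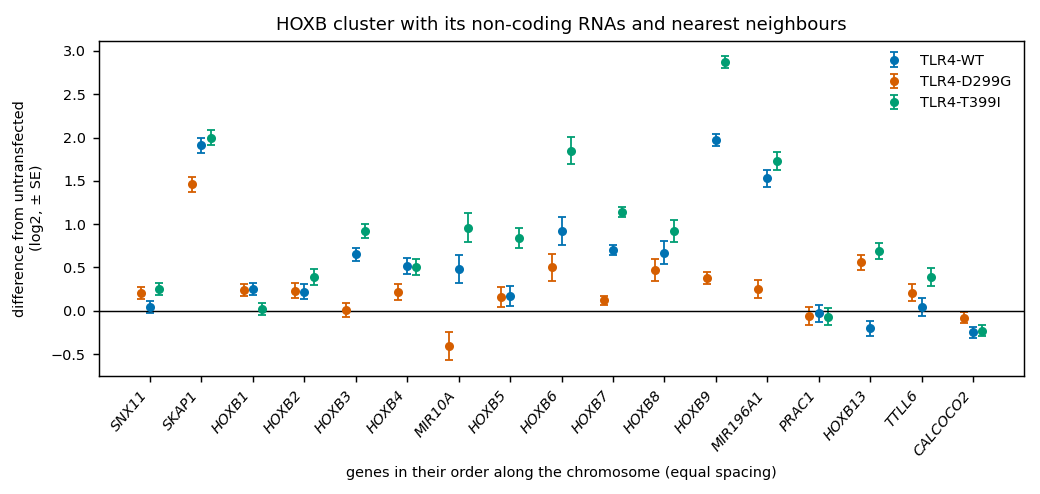
Log2 difference of each TLR4 line from untransfected cells (points, ± SE of the fit) for the HOXB genes, MIR10A, MIR196A1, PRAC1 and the nearest 2 neighbours on each side, in chromosomal order with equal spacing. The highest points are those of HOXB9, MIR196A1, SKAP1 and HOXB6, PRAC1 lies at -0.07 to -0.03, and TLR4-D299G (orange) is the lowest line from HOXB3 to MIR196A1.

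Around the other clusters the neighbours moved both ways. In TLR4-WT 0 of 10 neighbours of HOXA were higher and 4 lower, 4 and 2 of HOXC, and 2 and 3 of HOXD (background 16.1% and 15.1%). In TLR4-D299G these counts were 3 and 2, 3 and 1, and 1 and 3 (background 17.5% and 17.9%). In TLR4-T399I they were 1 and 2, 1 and 2, and 1 and 3 (background 14.6% and 14.8%). Over all 40 neighbours, those of HOXB included, 24 passed the F test (background 41.9%). Next to HOXA, HIBADH, an enzyme of valine breakdown, differed by -0.86, -0.81 and -1.13 in TLR4-WT, TLR4-D299G and TLR4-T399I. SKAP2, an adaptor related to SKAP1, differed by -0.85, -0.75 and -0.64 and SNX10, a sorting nexin, by -0.54 in TLR4-WT and 0.70 in TLR4-D299G. Near HOXD, LNPK, which shapes the endoplasmic reticulum, was lowest in TLR4-D299G (difference from untransfected cells -0.92, adjusted p = 6.64e-06).

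HOXA2, which patterns the second pharyngeal arch, was lowest in TLR4-D299G. It read 7.01, 7.20 and 7.10 in untransfected cells, 6.64, 7.13 and 6.70 in TLR4-WT, 6.13, 6.17 and 6.10 in TLR4-D299G, and 6.58, 6.57 and 6.85 in TLR4-T399I. The TLR4-D299G arrays were the 3 lowest, and TLR4-WT overlapped with untransfected cells and with TLR4-T399I. HOXA2 was 1.96-fold lower in TLR4-D299G than in untransfected cells (log2 difference -0.97, SE 0.13, adjusted p = 0.000149) and 1.61-fold lower than in TLR4-WT (adjusted p = 0.00265). It was called lower in TLR4-D299G than in each other group, as 1 of 27 HOX genes, a share near the background of 3.29%. The call against TLR4-T399I (1.45-fold, adjusted p = 0.015) was lost without TLR4-D299G replicate 3 or TLR4-T399I replicate 3. That of TLR4-T399I against untransfected cells (1.35-fold, adjusted p = 0.0219) was lost without TLR4-T399I replicate 1 or 2 or untransfected replicate 2 (highest adjusted p 0.0746).

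HOXC10, a posterior gene of the lumbar spinal cord and hindlimb, was highest in untransfected cells. Its arrays read 7.35, 7.25 and 7.36 there, 6.58, 6.45 and 6.47 in TLR4-WT, 6.53, 6.56 and 6.74 in TLR4-D299G, and 6.87, 6.85 and 7.05 in TLR4-T399I. No array of a TLR4 line reached the untransfected arrays, and TLR4-T399I lay between these and the other lines. The gene was 1.77-fold lower in TLR4-WT (adjusted p = 2.78e-05), 1.64-fold lower in TLR4-D299G (adjusted p = 6.55e-05) and 1.32-fold lower in TLR4-T399I (adjusted p = 0.00354). It was thus called higher in untransfected cells than in each line, as 1 of 27 HOX genes, a share below the background of 8.33%. TLR4-T399I lay 1.34-fold above TLR4-WT (adjusted p = 0.00697), and its 1.24-fold distance from TLR4-D299G (adjusted p = 0.0249) was lost in 4 of 18 alternative settings, among them without TLR4-D299G replicate 1 or 2 or TLR4-T399I replicate 3.

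HOXC5, a gene of the cervical and thoracic axis, read 6.61, 6.56 and 6.69 in untransfected cells, 6.64, 6.69 and 6.45 in TLR4-WT, 6.40, 6.23 and 6.04 in TLR4-D299G, and 6.53, 6.90 and 6.92 in TLR4-T399I. TLR4-D299G held the 3 lowest arrays, and the other groups overlapped. HOXC5 was 1.47-fold lower in TLR4-D299G than in TLR4-T399I (adjusted p = 0.0101). The 1.32-fold difference from untransfected cells (adjusted p = 0.0265) was lost without TLR4-D299G replicate 2 or 3 or untransfected replicate 1 or 3 (highest adjusted p 0.103).

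The remaining called HOXC genes differed by less than 1.5-fold. HOXC8, a thoracic gene, was lower in TLR4-D299G than in TLR4-WT (log2 difference -0.38, adjusted p = 0.0034), and its calls in TLR4-D299G against untransfected cells (-0.25) and in TLR4-T399I against TLR4-WT (-0.31) were each lost in 4 of 18 settings. HOXC9, which sets thoracic motor neuron identity, was called in TLR4-T399I against untransfected cells (-0.31, adjusted p = 0.0134). That call was lost with the compared arrays alone and without TLR4-T399I replicate 3 or untransfected replicate 2. HOXC11, a hindlimb gene, was called in TLR4-T399I against TLR4-WT (0.37, adjusted p = 0.0339), a call lost in 6 of 18 settings. HOXC12 and HOXC13 were called in no comparison and differed by -0.18 to 0.12.

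HOXD4, a hindbrain gene that responds to retinoic acid, was higher in TLR4-WT and TLR4-T399I. It read 7.39, 7.27 and 7.53 in untransfected cells, 7.83, 7.87 and 7.95 in TLR4-WT, 7.24, 7.50 and 7.29 in TLR4-D299G, and 7.81, 7.75 and 7.71 in TLR4-T399I. TLR4-D299G overlapped with untransfected cells, and the arrays of TLR4-WT and TLR4-T399I lay above both. The rise over untransfected cells was 1.40-fold in TLR4-WT (adjusted p = 0.00169) and 1.28-fold in TLR4-T399I (adjusted p = 0.00951). TLR4-D299G lay 1.45-fold below TLR4-WT (adjusted p = 0.0013) and 1.33-fold below TLR4-T399I (adjusted p = 0.00849).

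HOXD1, an anterior gene of sensory neurons, had group means of 7.15 ± 0.12 (SD, n = 3) in untransfected cells, 7.61 ± 0.14 in TLR4-WT, 7.55 ± 0.12 in TLR4-D299G and 7.57 ± 0.13 in TLR4-T399I. It rose by 1.38-fold, 1.32-fold and 1.34-fold in the lines (adjusted p = 0.00558, 0.0104 and 0.00951), and the lines differed from each other by at most 0.06. HOXD3, its neighbour, was called in TLR4-D299G (0.43, adjusted p = 0.0189) and TLR4-T399I (0.40, adjusted p = 0.0303). The HOXD3 calls were lost without untransfected replicate 1 or 2, among other settings, and the TLR4-T399I arrays overlapped the untransfected ones. HOXD8 and HOXD9 were called in TLR4-WT only (0.51 and 0.23, adjusted p = 0.0491 and 0.0272). These calls were lost in 13 and 5 of 18 settings, so that without TLR4-WT replicate 1 or 3 or untransfected replicate 2 neither was called. The 5′ genes HOXD10, HOXD11, HOXD12 and HOXD13, used in limb and hindgut, were called in no comparison and differed by -0.23 to 0.29.

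**Figure D4:**
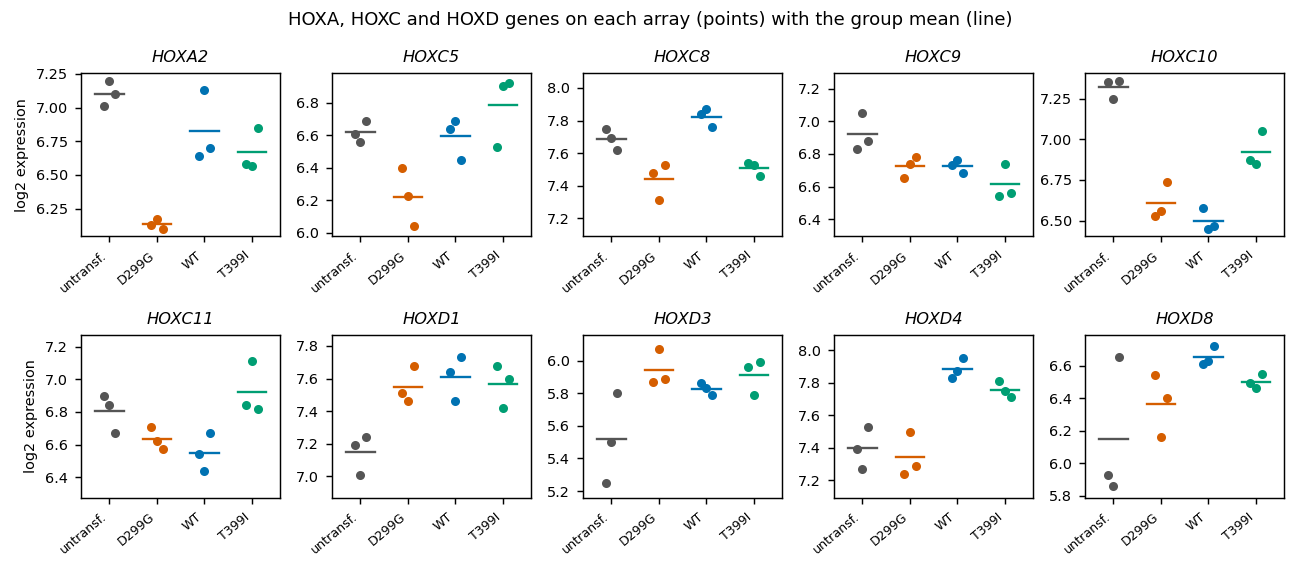
Log2 expression of HOXA2 and of the HOXC and HOXD genes with the largest differences on each of the 12 arrays (points) with the mean of each group of 3 (line); each panel has its own axis, which does not start at 0. HOXA2 is lowest in TLR4-D299G (6.10 to 6.17), HOXC10 is highest in untransfected cells (7.25 to 7.36), and HOXD1 is lowest in untransfected cells (7.01 to 7.24).

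Of the 10 HOX genes called lower in TLR4-D299G than in TLR4-T399I, HOXA2, HOXC5 and HOXD4 had a promoter window in the RefSeq table, and 11 of the 27 members did. The windows are shown as sequence, and any part of CDX2, a caudal factor also lowest in TLR4-D299G, in these calls was not tested. Each holds the 250 bases before the transcription start (GRCh38.p14), at chr7:27102684-27102933 on the minus strand for HOXA2, chr12:54016638-54016887 on the plus strand for HOXC5 and chr2:176151300-176151549 on the plus strand for HOXD4. The table gives the same window for HOXC4. Capitals mark matches, on either strand, to the caudal motif TTTATNG or the motif TGATNNAT of HOX with PBX. The third motif searched, the homeodomain core TAATTA, which reads the same on both strands, matched in none of these windows.
HOXA2 promoter: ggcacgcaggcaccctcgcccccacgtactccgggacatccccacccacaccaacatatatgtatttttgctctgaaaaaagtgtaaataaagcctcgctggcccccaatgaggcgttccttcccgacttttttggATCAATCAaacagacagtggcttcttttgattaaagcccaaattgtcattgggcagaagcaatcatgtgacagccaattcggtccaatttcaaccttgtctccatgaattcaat
HOXC5 promoter: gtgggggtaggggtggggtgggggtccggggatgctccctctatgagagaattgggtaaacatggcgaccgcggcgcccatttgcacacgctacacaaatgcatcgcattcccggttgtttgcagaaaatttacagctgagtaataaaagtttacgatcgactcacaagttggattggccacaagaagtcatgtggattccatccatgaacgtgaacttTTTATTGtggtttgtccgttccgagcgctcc
HOXD4 promoter: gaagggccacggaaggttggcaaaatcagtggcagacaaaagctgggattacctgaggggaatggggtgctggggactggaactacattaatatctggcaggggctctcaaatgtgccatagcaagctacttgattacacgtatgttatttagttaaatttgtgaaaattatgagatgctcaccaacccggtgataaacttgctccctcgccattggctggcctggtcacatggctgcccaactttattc

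HOXA2 held the HOX with PBX motif as ATCAATCA, which starts 114 bases before the transcription start, and HOXC5 held the caudal motif as TTTATTG, 31 bases before it. The HOXD4 window held no match. Of the 11 members with a window 2 held the caudal motif, HOXC5 and HOXD8, where 8.93% of all 35116 promoter windows did. The HOX with PBX motif was in 3, HOXA2, HOXB1 and HOXD11 (6.47% of all windows), and the homeodomain core in 2, HOXD3 and HOXD11 (4.35%). A match describes the letters of the window and no binding was measured.

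By paralog number the calls were densest in the 3′ and middle genes. All 6 members with paralog numbers 1 to 3 and 8 of 9 with numbers 4 to 8 passed the F test, against 5 of 12 with numbers 9 to 13 (background 41.9%). The last count was near the background. In the first class HOXB1, HOXB2 and HOXD3 passed the F test at adjusted p = 0.0206, 0.0216 and 0.045. The counts by class were not followed through the alternative settings. HOXB genes, which passed in every class, made up 3 of 6, 5 of 9 and 2 of 12 members. Paralog number and cluster are thus partly confounded. In the mean of the lines against untransfected cells, 5 of 6, 6 of 9 and 3 of 12 were higher (background 20.3%), with median differences of 0.33, 0.39 and 0.12 beside 0.04 over all probe sets. Among these the call of HOXB1 was lost in 11 of 17 alternative settings, and those of HOXD3, HOXD4 and HOXD9 in 1 each. The clusters differed within the last class. The HOXB genes HOXB9 and HOXB13 both passed the F test, as did 3 of 5 HOXC genes and 0 of 5 HOXD genes. TLR4-D299G was lower than TLR4-T399I at 6 of the 9 middle genes, HOXB5, HOXB6, HOXB7, HOXB8, HOXC5 and HOXD4, at 2 of the 6 genes with numbers 1 to 3 and at 2 of the 12 with numbers 9 to 13 (background 7.64%).

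Among regulators of the clusters CDX2, the caudal factor that maintains intestinal identity, was called lowest in TLR4-D299G. It read 10.05, 9.92 and 10 in untransfected cells, 10.10, 10.02 and 9.99 in TLR4-WT, 9.14, 9.14 and 9.13 in TLR4-D299G, and 9.85, 9.76 and 9.81 in TLR4-T399I. TLR4-D299G was far below all other arrays, and TLR4-T399I lay just below untransfected cells. CDX2 was 1.81-fold lower in TLR4-D299G than in untransfected cells (adjusted p = 2.34e-06) and 1.59-fold lower than in TLR4-T399I (adjusted p = 2.93e-05). The 7 other genes listed with it, caudal, ParaHox and EVX genes, did not pass the F test, though CDX1 and EVX2 had calls of at most 0.35. CDX2 is itself in the epithelial marker sum, and TLR4-D299G also had the lowest sum of the other 8 epithelial markers and the highest sum of the fibroblast markers, as given above. The part of any of these in the HOX differences was not tested.

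The cofactors that bind DNA together with HOX proteins differed by less than 2-fold and moved both ways. Of 7 measured members of the PBX, MEIS and PKNOX families, 1 was higher and 1 lower in TLR4-WT, 3 and 3 in TLR4-D299G, and 2 and 1 in TLR4-T399I. That is 2, 6 and 3 of 7 called, where 31.2%, 35.4% and 29.5% of all probe sets were, and 4 of 7 passed the F test (background 41.9%). MEIS2 differed by -0.61 in TLR4-WT (adjusted p = 5.65e-05), by -0.38 in TLR4-D299G and by -0.14, not called, in TLR4-T399I. PKNOX2 was higher by 0.45, 0.39 and 0.34 in the 3 lines. PBX3 was lower in TLR4-D299G (-0.36) and TLR4-T399I (-0.26), MEIS1 was higher in TLR4-T399I (0.48), and MEIS3 and PBX4 were higher in TLR4-D299G (0.32 and 0.30).

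Polycomb genes, whose products keep silent HOX genes off, were called in both directions. Of 19 measured, 2 were higher and 4 lower in TLR4-WT, 1 and 8 in TLR4-D299G, and 3 and 5 in TLR4-T399I, with medians of -0.09, -0.13 and -0.09. Over all probe sets 16.1% were higher and 15.1% lower in TLR4-WT, 17.5% and 17.9% in TLR4-D299G, and 14.6% and 14.8% in TLR4-T399I, so that 4 of 19 lower in TLR4-WT and 3 of 19 higher in TLR4-T399I were near the background. CBX2, a chromobox subunit of Polycomb complex 1, was higher in TLR4-WT (0.45) and TLR4-T399I (0.34) and lower in TLR4-D299G (-0.25). JARID2, which recruits Polycomb complex 2, was 1.55-fold lower in TLR4-WT (adjusted p = 2.89e-05) and 1.23-fold lower in TLR4-T399I. EZH2, the methyltransferase of that complex, was lower in TLR4-D299G (-0.26) and higher in TLR4-T399I (0.33), and PHF19, a partner of it, differed likewise (-0.32 and 0.29). PHC3 was lower in all 3 lines (-0.38, -0.75 and -0.47), and RBBP7 in TLR4-WT (-0.27) and TLR4-T399I (-0.59).

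Of 16 measured genes of MLL complexes and other activators of HOX chromatin, 5 were higher and 5 lower in TLR4-WT, 3 and 4 in TLR4-D299G, and 6 and 4 in TLR4-T399I. These are 10, 7 and 10 of 16 called, beside 31.2%, 35.4% and 29.5% of all probe sets. MLLT3, a subunit of the super elongation complex, was 1.92-fold, 1.93-fold and 1.54-fold lower in the 3 lines (adjusted p = 3.48e-06, 3.01e-06 and 5.94e-05). MLLT10, a cofactor of the H3K79 methyltransferase, differed by -0.54, -0.69 and -0.48, and ASH2L, a core MLL subunit, by -0.44, -0.47 and -0.37. HCFC1 was higher in TLR4-WT (0.30) and TLR4-T399I (0.50), as was KMT2B (0.37 and 0.34), a methyltransferase of MLL type. KDM6A, which removes the Polycomb mark, was lower in TLR4-T399I (-0.47).

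Genes of retinoic acid, a signal that opens the 3′ end of the clusters, moved both ways. Of 15 measured, 4 were higher and 5 lower in TLR4-WT, 5 and 6 in TLR4-D299G, and 4 and 5 in TLR4-T399I. These are 9, 11 and 9 of 15 called, beside 31.2%, 35.4% and 29.5% of all probe sets. RARB, a retinoic acid receptor and itself a target of the signal, read 7.80, 7.67 and 7.56 in untransfected cells, 7.26, 7.20 and 6.87 in TLR4-WT, 6.19, 6.05 and 6.40 in TLR4-D299G, and 6.55, 6.57 and 6.69 in TLR4-T399I. The untransfected arrays were the highest and those of TLR4-D299G the lowest, and no groups overlapped. RARB was 1.48-fold, 2.76-fold and 2.10-fold lower in the lines (adjusted p = 0.00432, 6.2e-06 and 6.05e-05). RDH10, which makes retinal from retinol, differed by -0.88, -1.09 and -0.86, and DHRS3, which turns retinal back, by -1.04, -0.68 and -0.68. CYP26B1, which breaks retinoic acid down, was higher by 0.47, 0.63 and 0.54, and STRA6, a retinol transporter, by 0.35, 0.60 and 0.58. CRABP2, which carries retinoic acid to the nucleus, was higher in TLR4-T399I (0.73) and 2-fold lower in TLR4-D299G than in TLR4-T399I (adjusted p = 2.39e-05).

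**Figure D5:**
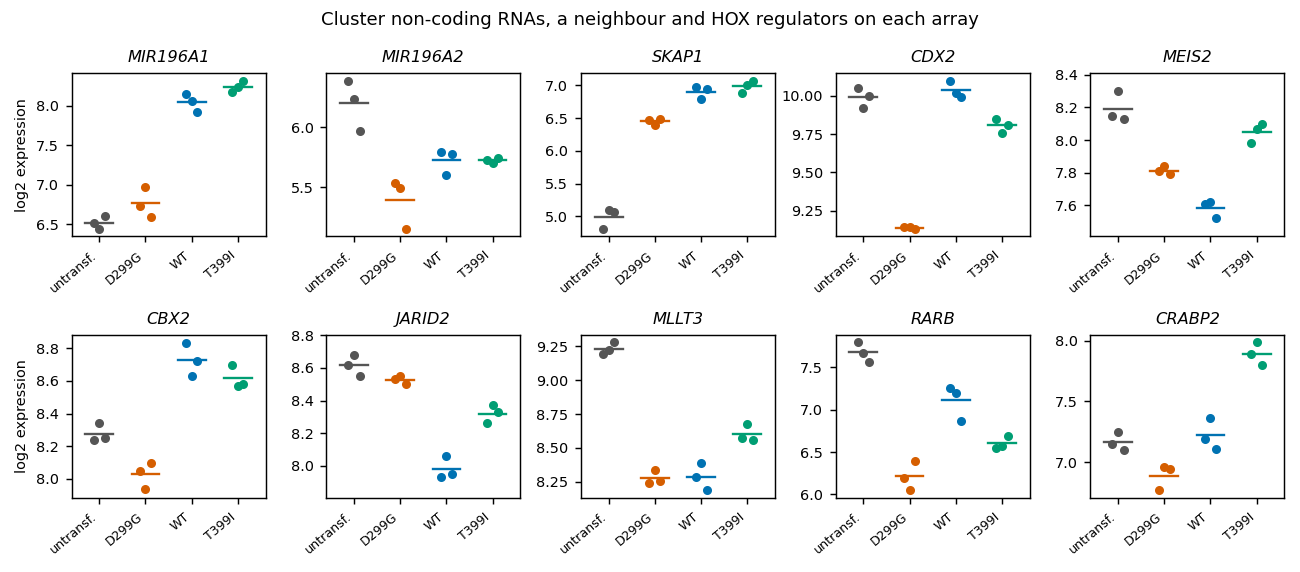
Log2 expression of MIR196A1, MIR196A2, SKAP1 and 7 regulators of HOX genes on each of the 12 arrays (points) with the mean of each group of 3 (line); each panel has its own axis, which does not start at 0. MIR196A1 is high in TLR4-WT and TLR4-T399I (7.92 to 8.32), CDX2 is low in TLR4-D299G (9.13 to 9.14), and RARB is highest in untransfected cells (7.56 to 7.80).

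Over the family 21 members were called in at least 1 of the 6 pairwise comparisons and 6 in none, and HOXB6, HOXB7 and HOXB9 were the 3 that were called with a change of at least 2-fold. No member had a group mean near background, and 8 lay below the array median on all 12 arrays. A mean above 5.2 does not by itself show that a gene was expressed, since the arrays have no detection calls. Leukocyte and endothelial markers such as ITGAM (5.69 to 6.31) and VWF (5.43 to 5.82) also lay above 5.2, while PTPRC and KDR did not. HOXB5 and HOXD12 were the 2 with at least 1 array below its own lower quartile. Of 80 calls of HOX genes, pooled comparison included, 58 held under every alternative setting and 22 were lost in at least 1, and 0 differences changed sign.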

How the data were processed

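Affymetrix whole-transcript arrays measured RNA of 12 Caco-2 samples, 4 groups of 3. The authors used Affymetrix Expression Console 1.0 and RMA, per the submitters' processing notes, and the deposited values are log2 expression of 33297 probe sets, given to 2 decimals, with 0 missing and no detection calls. RMA's quantile step gives all arrays nearly the same distribution, so that a shift shared by most genes would not be seen. Precision is limited by the number of arrays.

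No filter was applied to these values. Gene names came from the array annotation (1 symbol for 19460 probe sets, several for 1754, none for 12083), and all 27 HOX symbols were found in RefSeq. RefSeq gave the gene order, since the array's genome build is not given in the sources used here, and the sequences. Tests used limma (3.58.1, R 4.3.3), with a group-means model of all 12 arrays (8 residual degrees of freedom), empirical Bayes moderation (2.87 prior degrees of freedom) and two-sided p-values, which were adjusted over all probe sets by the method of Benjamini and Hochberg. Errors are SE of the fit or SD of 3 arrays, and folds are taken from differences of group means.

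All array values are given for the 12 HOX genes with the largest called difference without overlap between the compared groups, and from each other list up to 6 such genes are named. The members, lists and naming rule were chosen with earlier results of these data known. Alternatives were median centring, the compared arrays alone, removal of dim probe sets, averaged probe sets, a replicate block, a trended and robust prior, and leaving out each array.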

Additional observations from a re-analysis of the deposited data

How the results depend on the processing

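Counts of called HOX genes moved by more than 1.5 times only for TLR4-D299G against untransfected cells, from 11 to 7 with the compared arrays alone. Leaving out each array in turn gave 9 to 15 calls for TLR4-WT, 7 to 12 for TLR4-D299G and 12 to 16 for TLR4-T399I against untransfected cells. It gave 7 to 8 for TLR4-D299G against TLR4-WT, 6 to 10 for TLR4-T399I against TLR4-WT, 7 to 11 between the mutant lines, 13 to 18 for the mean of the lines, 14 to 18 in the F test and 55 to 69 for the other lists. The causes were not tested. The replicate block gave 13, 12, 15, 7, 7 and 10 calls in the 6 pairwise comparisons, 18 for the mean of the lines, 17 in the F test and 62 for the other lists. Same-numbered arrays deviated together with r from -0.079 to 0.274 (over 0.1 in 5 of 18 pairs). Since not every pair was over 0.1 and the labels name no shared batch, the numbers were not taken to pair the samples, although 8 of 12 arrays correlated best with their own number, a hint from the data of a shared source. The compared arrays alone give no separate value for the F test or the mean of the lines. Of the 80 called HOX differences 0 changed sign under any alternative. Centring moved the median of all probe sets by -0.057 to 0.043, which turned its sign in TLR4-WT (0.047 to -0.01) and TLR4-D299G (0.03 to -0.017) against untransfected cells, in TLR4-T399I against TLR4-WT (-0.023 to 0.02) and in the mean of the lines (0.036 to -0.003). The arrays have no detection calls, so that values near background have an unknown floor.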
